A study of Bos taurus and Sus scrofa with 6 samples.

Results

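UTF1, ISL1 and DBX2 are 3 genes for nuclear proteins whose UMIs in the prepubertal testis of cattle and pigs came almost wholly from germ cells. They were chosen by symbol, and with their germ cell pattern already known, as 3 of the 19994 genes listed for cattle and 3 of the 22694 listed for pigs. The files name them ENSBTAG00000024999, ENSBTAG00000001241 and ENSBTAG00000006635 in cattle and ENSSSCG00000010771, ENSSSCG00000016883 and ENSSSCG00000035938 in pigs. Their level in germ cells against other cells is therefore a description with no test. The comparisons below concern the share of germ cells with each gene, detection of the genes in the same cells, and the company they keep among spermatogonial and meiotic genes. The genes and the gene lists were chosen with earlier results of these data known, so that these comparisons are not independent of the choice.

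The data are 6 scRNA-seq libraries of total testicular cells, 3 from Holstein cattle 4.5 months old and 3 from mixed breed pigs 3 months old, all untreated animals whose testes were taken by castration and dissociated to single cells. Libraries were made with 10x Genomics v2 chemistry, which counts molecules of RNA as UMIs (unique molecular identifiers) at the 3' end of transcripts. Cattle libraries held 5805223, 27409347 and 53325608 UMIs and pig libraries 6245189, 40099873 and 33500750, so that libraries 1 of both species were the shallowest. The labels give libraries 2 and 3 of each species 1 shared testis number beside different tags, while the deposited files number the 3 apart and the study's methods state 3 males of each species. They are numbered here as cattle 1 to 3 and pig 1 to 3, with each library taken as 1 animal. Species, age and breed cannot be told apart in any comparison of cattle with pigs.

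Cells were called from the counts, clustered without the 3 genes, and named by markers. A cluster was called germ-like when at least 3 germ cell markers such as DDX4, MAEL and UCHL1 stood out in it. Germ-like cells numbered 82, 217 and 218 in cattle, 517 of 17482 cells, and 639, 217 and 698 in pigs, 1554 of 9206 cells. A UMI of at least 2 germ cell markers was found in 96.3%, 98.2% and 100% of these cells in cattle 1, 2 and 3, in 95.9% and 89.4% in pig 2 and pig 3, and in 55.2% in pig 1. Between 8 and 61 cell barcodes were shared by each pair of libraries of 1 species, and among germ-like cells 2 were, between pig 1 and pig 3.

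UTF1 (undifferentiated embryonic cell transcription factor 1) is a chromatin-associated protein of pluripotent cells that in the testis marks early, undifferentiated spermatogonia. ISL1 is a LIM homeodomain factor best known from motor neurons, heart progenitors and pancreatic islets, and DBX2 is a homeodomain factor of interneuron progenitors in the spinal cord. In the prepubertal testis, gonocytes give rise to undifferentiated spermatogonia, marked by genes such as GFRA1, ETV5 and ZBTB16, then to KIT-positive differentiating spermatogonia, and these enter meiosis under STRA8 and build the synaptonemal complex with SYCP and SYCE proteins.

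In the pig genome (Sscrofa11.1, RefSeq annotation) UTF1 spans chr14:141190170-141193409 on the plus strand, with 2 exons. Its nearest neighbour, KNDC1, ends 1826 bases before it on the same strand. ISL1 spans chr16:30962994-30974201 on the plus strand, with 6 exons. DBX2 spans chr5:75945866-75983466 on the minus strand, with 4 exons, between NELL2 and ANO6. None of the 3 overlapped another annotated gene. The 250 bases before the ISL1 start are shown because ISL1 and DBX2 are homeodomain proteins, and the capitals mark the core letters TAAT that such proteins are known to contact, on either strand (chr16:30962744-30962993, plus strand, 5′ to 3′):
ISL1: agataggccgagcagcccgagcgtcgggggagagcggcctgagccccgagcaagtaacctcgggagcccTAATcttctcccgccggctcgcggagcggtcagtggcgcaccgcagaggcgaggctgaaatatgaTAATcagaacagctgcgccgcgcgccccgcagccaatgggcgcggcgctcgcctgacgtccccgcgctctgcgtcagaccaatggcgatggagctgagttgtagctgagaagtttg
This stretch held 2 TAAT matches and 66.0% G and C, and at least 2 matches were found in 25.2% of 19555 windows of the same length before protein-coding genes. The same window of UTF1 held 1 match and that of DBX2 held 0, where 46.4% of those windows had at least 1. By RefSeq's masking, 50.8% of the UTF1 window and 85.2% of the DBX2 window were repeats, against a median of 10.0% over those windows and 0.0% for ISL1. The matches are letters in a window and were not tested as sites.

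Germ-like cells held 282 of the 290 UTF1 UMIs in cattle cells (97.2%) and 504 of 535 in pig cells (94.2%). For ISL1 they held 337 of 345 in cattle (97.7%) and 754 of 798 in pigs (94.5%). For DBX2 they held 192 of 197 in cattle (97.5%) and 237 of 255 in pigs (92.9%). In both species DBX2 was thus the gene with the fewest UMIs and ISL1 the one with the most.

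Summed over the germ-like cells of each library and scaled by the total count as CPM, UTF1 stood at 47.8, 65.8 and 48.8 CPM in cattle (54.1 ± 10.1, SD, n = 3) and at 33.9, 33.3 and 27.7 CPM in pigs (31.7 ± 3.41, SD, n = 3). ISL1 stood at 51.3, 90.3 and 54.7 CPM in cattle (65.4 ± 21.6) and at 44.3, 69.5 and 36.8 CPM in pigs (50.2 ± 17.1). DBX2 stood at 23.9, 36.7 and 36.7 CPM in cattle (32.5 ± 7.39) and at 13.8, 28.9 and 9.51 CPM in pigs (17.4 ± 10.2). UTF1 varied least between pigs, and cattle 2 and pig 2 were the highest library of their species for ISL1. With tags from the 3' end, a level is a share of all UMIs and does not rise with transcript length. In a sum over cells, fewer positive cells and fewer molecules per cell cannot be told apart.

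In cells of the other named types UTF1 had a mean of 0.102 CPM and ISL1 of 0.22 CPM over the 3 cattle, and in the pigs the means were 0.869 ± 0.423 and 0.982 ± 0.792 CPM (SD, n = 3). Sertoli-like cells, which should lack the genes, served as background for the share of cells with a UMI. UTF1 was found in 0 of 4201 Sertoli-like cells of cattle, which allows a share of up to 0.0714%, and in 7 of 3661 of pigs (0.191%). ISL1 was found in 1 of the cattle and 6 of the pig Sertoli-like cells, and DBX2 in 3 and 4. Their median depth was 3039 UMIs in cattle and 3410 in pigs, against 7362 and 7856 in germ-like cells. The highest level of UTF1 in a named type other than germ cells was 7.59 CPM in the Leydig-like cells of pig 3, from 3 UMIs. Intervals and limits here cover counting error only.

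**Figure D1:**
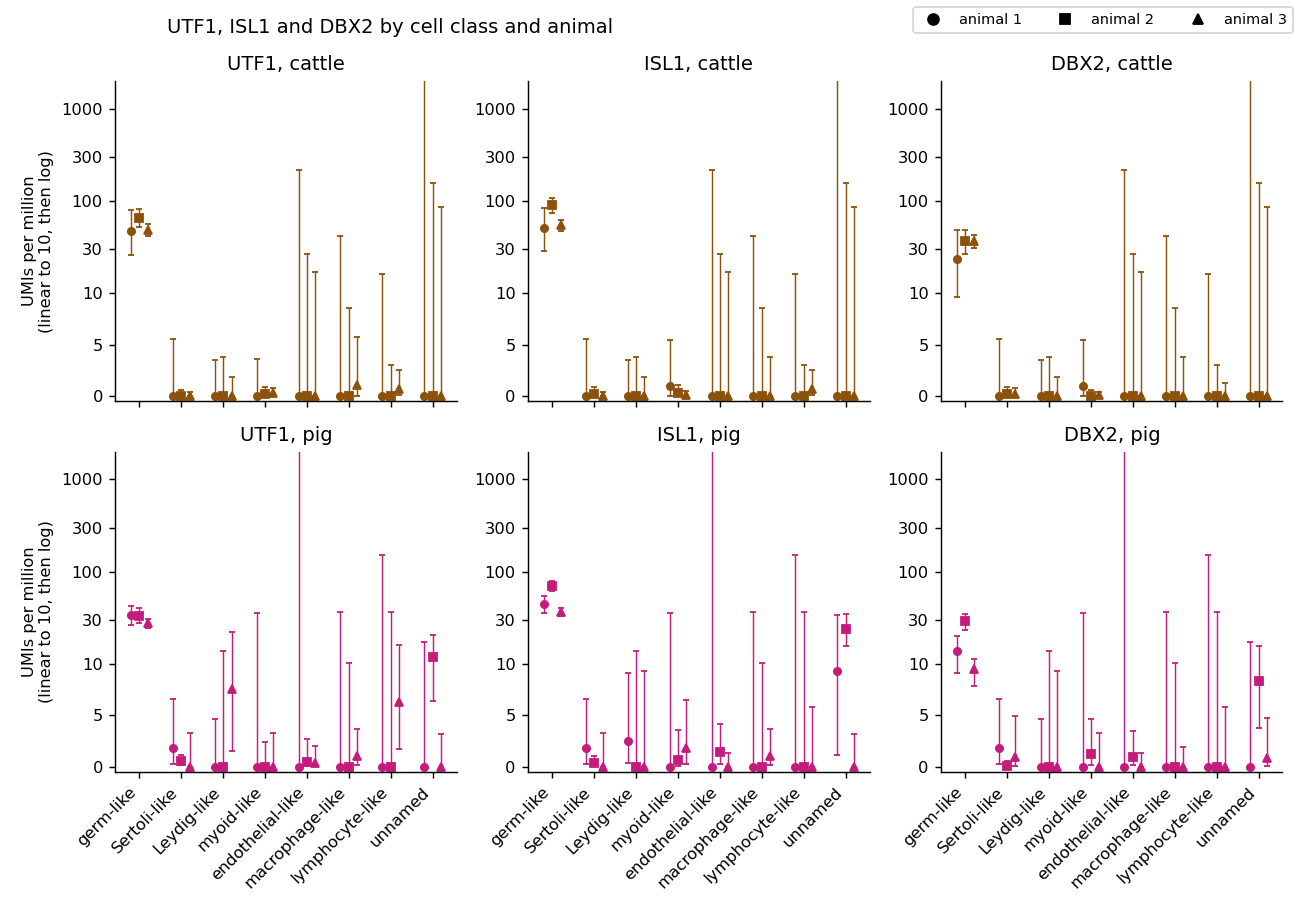
Level of UTF1, ISL1 and DBX2 (CPM, linear near 0 and logarithmic above) in the summed cells of each type, 1 symbol per cattle or pig library, with bars for the exact 95% Poisson interval of the UMI count; a few intervals from small sums run past the top. Germ-like sums lie between 9.51 and 90.3 CPM, and UTF1 in Leydig-like cells of pig 3 is at 7.59 CPM.

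UTF1 was found in 12 of 82 (14.6%), 60 of 217 (27.7%) and 102 of 218 (46.8%) cattle germ-like cells, and in 57 of 639 (8.92%), 80 of 217 (36.9%) and 194 of 698 (27.8%) of those of the pigs. ISL1 was found in 17.1%, 39.6% and 46.3% of the cattle cells and in 11.7%, 50.7% and 26.5% of the pig cells. DBX2 was found in 8.54%, 18.4% and 39.5% of the cattle cells and in 4.07%, 37.3% and 12.8% of the pig cells. For each gene the share was lowest in library 1, where the median germ-like cell held 3554 UMIs in cattle and 2824 in pigs, against 6180 and 16910 in cattle 2 and 3 and 15210 and 14820 in pig 2 and 3. Most positive cells carried 1 UMI for DBX2 (88 of 133 in cattle and 162 of 196 in pigs), and the most in 1 cell was 9 for ISL1, in pig 3.

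Each germ-like cell was therefore also thinned to 2000 UMIs, which kept 64, 196 and 218 cells in cattle and 438, 217 and 698 in pigs. UTF1 was then found in 12.5%, 13.3% and 8.72% of cattle cells and in 4.8%, 8.29% and 3.72% of pig cells. ISL1 was found in 10.9%, 16.8% and 11.5% of cattle cells and in 7.08%, 11.98% and 5.16% of pig cells, so that the ranges of the species overlapped. DBX2 was found in 4.69%, 7.14% and 5.96% of cattle cells and in 3.2%, 7.37% and 1.58% of pig cells. The UTF1 share lay above every pig in each of the 3 cattle, by 5.89 percentage points on average. The exact two-sided permutation test gave p = 0.1 for it, the smallest p that 3 against 3 allows, and p = 0.3 for ISL1 and 0.4 for DBX2; over the 3 genes the smallest p allowed exceeds 0.05 already before adjustment. At full depth the ranges overlapped for UTF1 too (exact permutation p = 0.8).

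Over sums of cells by library and named type, the genes whose log2(CPM + 10) followed UTF1 most closely, among those with a symbol, were CT55 (Pearson r = 0.999 over 21 sums) and CCDC42 (0.998) in cattle, and TP63 (0.987) and JPH1 (0.983), over 20 sums, in pigs. For ISL1 they were CRYGD (0.999) in cattle and KLK4 (0.992) in pigs, and for DBX2 CADPS (0.998) in cattle and VEPH1 in pigs (0.991). These sums share libraries and are not independent, and since they run over all named types, r is set largely by the gap between germ-like and other cells for which the 3 genes were chosen. It is a description of that pattern. UTF1 with ISL1 had r = 0.998 in cattle and 0.936 in pigs, and ISL1 with DBX2 had 0.994 and 0.974.

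The germ-like cells of pigs fell into 4 clusters, and the 3 genes were spread unequally over them. The description below has no test, since cells of a cluster were grouped by their expression. In the cluster led by UCHL1, a ubiquitin hydrolase abundant in spermatogonia, the 624 cells held 75.04 CPM of ISL1, 38.9 of UTF1 and 19.8 of DBX2. ISL1 stood at 56.7, 95.8 and 73.4 CPM there in pig 1, 2 and 3. In the 200 cells of the cluster with PIWIL4, a piRNA pathway gene of early germ cells, UTF1 was the highest of the 3 at 83.0 CPM (89.3, 67.7 and 106 in the 3 pigs), with 41.5 CPM of DBX2 and 37.4 of ISL1. The 650 cells of the cluster with COX8C held 17.3 CPM of UTF1, 25.3 of ISL1 and 6.58 of DBX2, beside 66.6 CPM of KIT. In it UTF1 had no UMI in pig 1 and stood at 19.8 and 17.6 CPM in pig 2 and 3. KIT stood at 49.8 CPM in the PIWIL4 cluster and at 9.73 CPM in the UCHL1-led cluster. For pig 1 alone KIT was at 32.3 CPM in the COX8C cluster and at 31.5 CPM in the PIWIL4 cluster.

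The fourth cluster, of 80 cells, was led by TEX101, a germ cell surface glycoprotein, at 2021 CPM. It held no UTF1 and no ISL1 UMI and 1 DBX2 UMI, beside 334 CPM of DDX4 and 689 CPM of SYCP1. It held 67.7% of all TEX101 UMIs of pig germ-like cells, so that comparisons below are also given without it. In cattle the germ-like cells formed 1 cluster. In cattle 3 it held a cell of 178182 UMIs, with 98.9% of the LYPD4 UMIs of cattle germ-like cells, 42 UMIs of DDX4, 1 of ISL1 and none of UTF1 or DBX2, and cattle comparisons are also given without this cell.

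**Figure D2:**
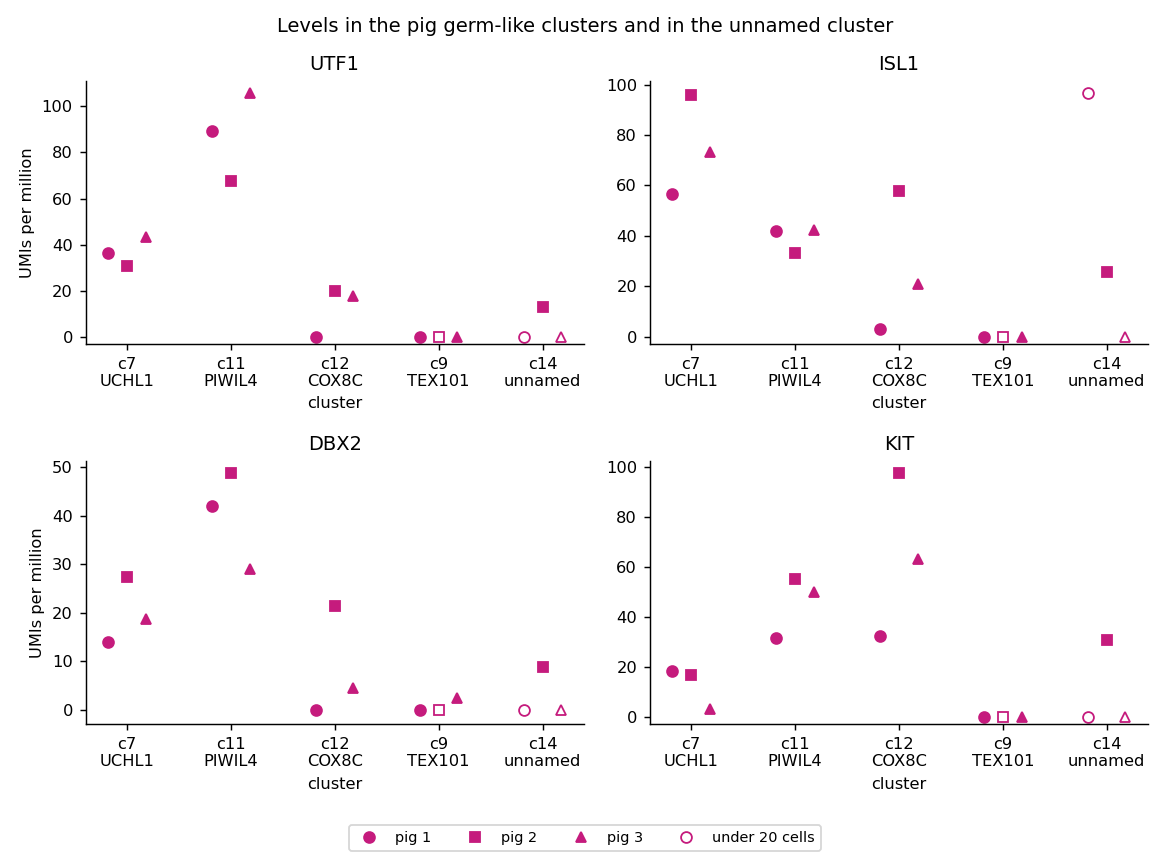
Level of UTF1, ISL1, DBX2 and KIT (CPM) in each germ-like cluster of the pigs and in the unnamed cluster c14, 1 symbol per pig. Open symbols are sums of under 20 cells. UTF1 is highest in the PIWIL4 cluster (83.0 CPM over all 3 pigs), ISL1 in the UCHL1-led cluster (75.04 CPM), and the TEX101-led cluster is at 0 CPM for both.

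Of the 517 cattle germ-like cells, 186 had none of the 3 genes, 187 had 1, 111 had 2 and 33 had all 3. Of the 1554 pig cells, 971 had none, 326 had 1, 200 had 2 and 57 had all 3. ISL1 was found in 14.04%, 60.0% and 56.7% of the UTF1-positive cells of pig 1, 2 and 3, and in 11.5%, 45.3% and 14.9% of the cells without UTF1. DBX2 was found in 10.7%, 44.5% and 34.6% of the ISL1-positive cells of the pigs, and in 3.19%, 29.9% and 4.87% of the others. At full depth the share was thus higher in the positive cells of every pig, with the widest gap in pig 3. In cattle, ISL1 was found in 8.33%, 31.7% and 52.9% of UTF1-positive cells and in 18.6%, 42.7% and 40.5% of the rest, so that the order differed between libraries. DBX2 was found in 14.3%, 22.1% and 54.5% of the ISL1-positive cells of cattle and in 7.35%, 16.03% and 26.5% of the others.

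Depth differed between positive and negative cells. ISL1-positive pig cells had median depths of 4396, 18040 and 21560 UMIs, against 2711, 11530 and 12150 in the others. ISL1-positive cattle cells had 2502, 7378 and 20050 UMIs, against 3764, 5355 and 11630, and were thus the shallower in cattle 1. After thinning to 2000 UMIs, cells with both UTF1 and ISL1 numbered 6 in cattle and 7 in pigs, and cells with all 3 genes 0 and 1, too few to compare at this depth. Levels in summed cells are therefore given below as CPM. Since positive cells were mostly the deeper ones, CPM does not separate the part of depth in the joint detection, which was not tested.

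**Figure D3:**
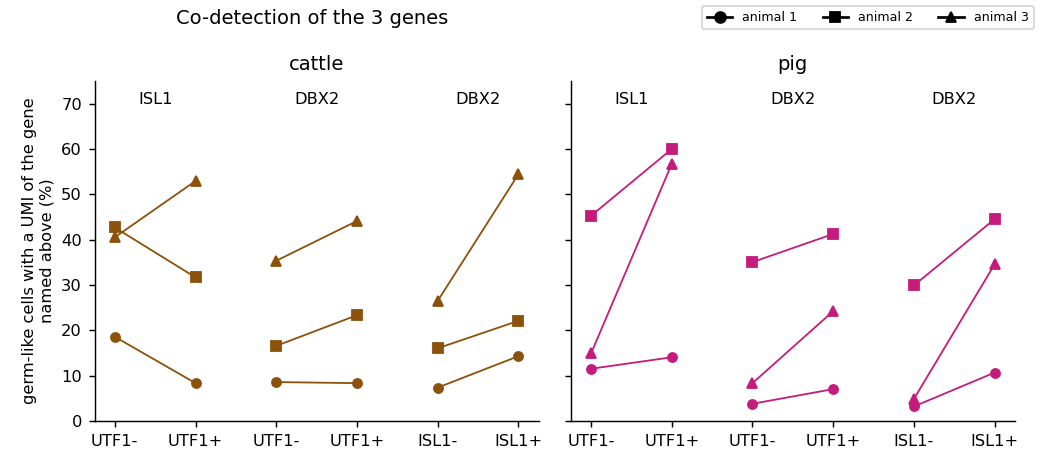
Share of germ-like cells (%) in which the second gene of a pair had a UMI, among cells with and without the first gene, for each cattle and pig library. Cells are at full depth, and positive cells were mostly the deeper ones. The widest gap is UTF1 and ISL1 in pig 3, 56.7% against 14.9%.

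UMIs of positive and of negative cells were summed in each library and compared with edgeR's quasi-likelihood test over all genes, with Benjamini-Hochberg adjustment. Both sums of a library come from the same tissue, and the library entered as a block in the values given here. Without the block, none of the 3 genes passed in the sets defined by another. ISL1 stood at 41.0, 73.4 and 62.8 CPM in UTF1-positive cells of pig 1, 2 and 3 and at 44.7, 66.6 and 21.9 CPM in the others. The groups differed mainly in pig 3, and ISL1 was higher by 0.70 on the log2 scale over the 3 pigs (SE 0.18, edgeR adjusted p = 0.00503 with the block). Of all 13976 genes tested, 0.916% were higher in this comparison. Without pig 3 the difference was 0.04 (edgeR adjusted p = 0.998).

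ISL1 also stood at 99.6, 79.2 and 90.2 CPM in DBX2-positive pig cells against 41.4, 62.2 and 24.5 CPM in the others, which did not overlap. It was higher there by 1.08 log2 units (SE 0.24, edgeR adjusted p = 0.00088 with the block), in a comparison where 0.301% of genes were higher. DBX2 stood at 27.7, 30.01 and 18.9 CPM in ISL1-positive pig cells against 11.12, 27.2 and 3.64 CPM. It was higher there by 1.31 (SE 0.31, edgeR adjusted p = 0.00143 with the block), where 2.34% of genes were higher. Without pig 3 the ISL1 difference was 0.50 and the DBX2 difference 0.55, and neither passed (edgeR adjusted p = 1 and 0.55). All 3 differences passed without the TEX101-led cluster, where 0.597%, 0.194% and 1.98% of genes were higher. In thinned cells ISL1 differed by -0.11 in UTF1-positive and -0.26 in DBX2-positive cells and DBX2 by 0.25 in ISL1-positive cells with the block, while the median of all genes stood at -0.45, -0.67 and -0.35 in those fits, and none passed.

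UTF1 differed by 0.59 in ISL1-positive and 0.72 in DBX2-positive pig cells (edgeR adjusted p = 0.16 and 0.159 with the block), and both passed without pig 2, at 0.93 and 1.09 (edgeR adjusted p = 0.0169 and 0.0133), where 3.51% and 1.84% of genes were higher. Without pig 3 the UTF1 differences were -0.000621 and 0.32, and neither passed (edgeR adjusted p = 1 for both with the block). In cattle no pair passed. UTF1 stood at 25.1, 51.7 and 45.7 CPM in ISL1-positive cattle cells and at 51.4, 77.1 and 53.1 CPM in the others. It was the lower of both sums in each of the 3 cattle, with a log2 difference of -0.53 (edgeR adjusted p = 0.258 with the block). DBX2-positive cells of cattle were not compared, since cattle 1 had 7.

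To relate the genes to meiotic genes, each thinned germ-like cell was counted for how many of 38 meiotic prophase genes had a UMI (32 are listed for cattle and 30 for pigs). The paper describes the germ cells as spermatogonia, and names early prophase spermatocytes for the pig tissue. Before thinning, 501 of 517 cattle cells had at least 2 such genes, and 454 of 639, 213 of 217 and 697 of 698 pig cells. The count is therefore not read as entry into meiosis. Thinned cells with at least 2 numbered 47, 161 and 194 in cattle and 242, 128 and 452 in pigs, and thinned cells with fewer numbered 17, 35 and 24, and 196, 89 and 246. At full depth, ISL1 stood at 34.9, 69.1 and 27.2 CPM in the pig cells with at least 2 meiotic genes and at 57.5, 69.99 and 50.1 CPM in those with fewer. UTF1 stood at 26.2, 31.3 and 22.5 CPM against 37.5, 35.6 and 35.0 CPM. Both genes were thus lower in the cells richer in meiotic genes in each of the 3 pigs, by little in pig 2. DBX2 stood at 9.82, 32.9 and 7.89 CPM against 17.6, 24.2 and 11.8 CPM and went the other way in pig 2. The cells with at least 2 meiotic genes were also the shallower in each pig. Their full-depth medians were 3457, 13920 and 12730 UMIs, against 4032, 17160 and 18420, and the part of depth was not tested. In pig 3, where cells were most numerous, ISL1 stood at 42.8, 54.1, 36.7, 28.3 and 15.8 CPM in cells with 0, 1, 2, 3 and at least 4 meiotic genes, and UTF1 at 44.5, 29.8, 23.3, 26.2 and 19.4 CPM. Over the same classes ISL1 stood at 65.1, 54.4, 45.3, 31.7 and 23.3 CPM in pig 1. In pig 2 it stood at 59.7, 75.6, 91.1, 59.4 and 35.4 CPM, highest with 2 meiotic genes. UTF1 stood at 52.9, 31.3, 23.99, 21.1 and 35.0 CPM in pig 1 and at 41.6, 32.4, 38.05, 27.1 and 22.7 CPM in pig 2. In each pig the cells with at least 2 meiotic genes include cells of the TEX101-led cluster, which held no UTF1 or ISL1 UMI. Without that cluster the 242, 128 and 452 cells of this class became 222, 122 and 408.

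In the sums of thinned cells without the block, no member passed in either species, where 0.00955% of genes were called in pigs and 0.0% in cattle. The pig differences were -0.82 for UTF1, -0.63 for ISL1 and -0.91 for DBX2. With germ-like cells limited to those with a UMI of at least 2 germ cell markers, which 55.2% of those of pig 1 had, the UTF1 difference was 0.12 and that of ISL1 -1.11, and neither passed (edgeR adjusted p = 1 for both). In the full-depth sums of the same cells with the block, ISL1 was lower at -0.65 on the log2 scale (SE 0.14, edgeR adjusted p = 0.00042) and UTF1 at -0.59 (SE 0.17, edgeR adjusted p = 0.0161), among 2.19% of genes lower. DBX2 differed by -0.29 (edgeR adjusted p = 0.597). Without the TEX101-led cluster ISL1 still passed at -0.56 (edgeR adjusted p = 0.00511) and UTF1 did not, at -0.50 (edgeR adjusted p = 0.0817), among 1.34% of genes lower. Without pig 3 neither passed, at -0.32 and -0.38 (edgeR adjusted p = 0.765 and 0.786), and UTF1 also missed the threshold without pig 1 (edgeR adjusted p = 0.0886).

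Between these 2 classes ISL1 ran the other way in cattle. It stood at 62.4, 93.8 and 57.9 CPM in cells with at least 2 meiotic genes and at 0, 74.0 and 24.8 CPM in those with fewer, higher in each of the 3 cattle. The sum of the smaller class of cattle 1 holds 17 cells. Full-depth medians of the cells with at least 2 meiotic genes were 4058, 6720 and 17040 UMIs, against 4225, 6534 and 15920. They were thus the shallower in cattle 1 and the deeper in cattle 2 and 3, and the part of depth was not tested. The difference in thinned sums was 1.75 (SE 0.74, unadjusted p = 0.0251, edgeR adjusted p = 0.998), and it did not pass the adjustment with the block (edgeR adjusted p = 0.573) or in full-depth sums with it, where it was 0.80 (edgeR adjusted p = 0.423) and 0.381% of genes were higher. UTF1 stood at 41.6, 71.8 and 50.5 CPM against 65.8, 47.9 and 33.0 CPM, and DBX2 at 26.0, 36.4 and 36.8 CPM against 26.3, 34.8 and 35.8 CPM. Over cells with 0, 1, 2, 3 and at least 4 meiotic genes, ISL1 in cattle 2 was highest with 2, as in pig 2. It stood there at 53.0, 78.1, 136.1, 101.0 and 69.8 CPM. In cattle 1 ISL1 stood at 0.0, 0.0, 36.8, 46.0 and 96.2 CPM, and in cattle 3 at 0.0, 38.45, 53.0, 60.0 and 58.8 CPM. The edgeR test without the block called 0 of 7678 genes in the cattle classes, with 229 at an unadjusted p under 0.05, and DESeq2 called 0. The difference between the species was not tested.

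**Figure D4:**
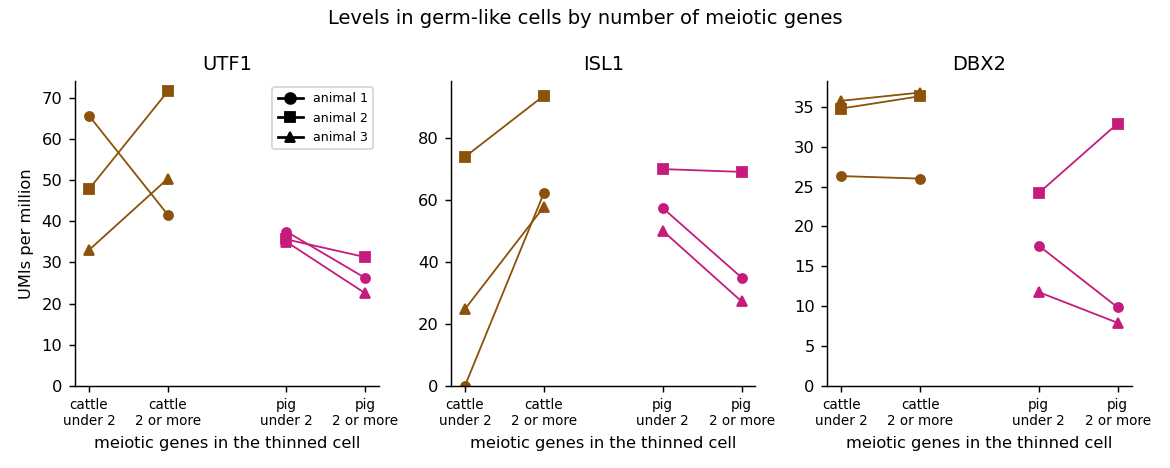
Full-depth level of UTF1, ISL1 and DBX2 (CPM) in germ-like cells with fewer than 2 and with at least 2 of the meiotic prophase genes, classes formed on cells thinned to 2000 UMIs, 1 line per library. ISL1 goes down in the 3 pigs, from 69.99 to 69.1 CPM in pig 2, and up in the 3 cattle.

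The ISL1-positive germ-like cells of pigs held less of several meiotic genes and more of several undifferentiated spermatogonial genes in the fit with the block over all 3 pigs. With the block, 327 genes were higher (2.34%) and 449 lower (3.21%) of 13976. Without the block 4 were lower, 0.0286% of the genes, and DESeq2 called 32; without pig 3 and with the block 204 were called, and without pig 2 1115. Of 28 meiotic genes tested 13 were lower and 0 higher, with a median difference of -1.003 against -0.05 for all genes. They include STRA8, the synaptonemal genes SYCP1, SYCP3 and SYCE3, the recombinase DMC1 and the cohesin REC8. In thinned cells of the 3 pigs together, STRA8 was found in 2 of the 93 cells with ISL1 (2.15%) and in 30 of the 1260 without (2.38%). SYCP1 was found in 12.9% and 13.9% and SYCP3 in 7.53% and 7.86%, which were close. SYCE3 was found in 11.8% and 24.2%, DMC1 in 2.15% (2 cells) and 4.13% and REC8 in 3.23% (3 cells) and 6.19%. For STRA8, DMC1 and REC8 the positive cells with ISL1 are too few to compare, and all these shares pool unlike pigs. TEX101 stood at 18.5, 12.4 and 7.89 CPM in ISL1-positive cells against 182, 20.4 and 169.7 CPM in the others, and was lower at -3.12 (SE 0.26, edgeR adjusted p = 1.66e-28 with the block). STRA8 stood at 3.08, 4.29 and 4.96 CPM against 10.5, 12.8 and 19.6 CPM. Without the TEX101-led cluster 11 of 27 meiotic genes were lower, without pig 3 4 of 25, and in thinned cells 3 of 25, in fits where 2.14%, 1.29% and 0.695% of all genes were lower.

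Of 18 genes of undifferentiated spermatogonia, 6 were higher with ISL1 and 1 was lower. Those higher were LHX1, a LIM homeobox gene, by 2.09, SALL4 by 1.72 (though 3.08 against 6.44 CPM in pig 1), GFRA1, the GDNF receptor, by 1.43, ETV5 by 1.19, ZBTB16 by 1.13 and UCHL1 by 0.76. ETV5 stood at 33.9, 52.9 and 68.9 CPM against 18.7, 45.3 and 17.1 CPM (edgeR adjusted p = 7.16e-05 with the block). The exception was TSPAN33, a tetraspanin, lower at -1.42 at 18.5, 20.5 and 27.9 CPM against 45.7, 44.5 and 92.8 CPM. Without pig 3, 0 of 16 genes of this list were higher and 2 lower, and in thinned cells 0 of 14 were higher, where 0.0191% of all genes were.

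Among 11 genes of differentiating spermatogonia, CCND2 was higher by 1.15 and 4 were lower. In this fit 2.34% of all genes were higher and 3.21% lower, which also holds for the lists below. KIT stood at 15.4, 31.0 and 18.5 CPM in ISL1-positive cells against 22.2, 86.0 and 56.9 CPM, lower at -1.39 (SE 0.25, edgeR adjusted p = 3.89e-06 with the block). Of 18 cell division genes 5 were lower, with TOP2A, which untangles DNA in dividing cells, at 43.1, 65.2 and 74.6 CPM against 113, 128 and 199.9 CPM. LHX1 was the 1 gene called among 12 LIM homeobox factors and cofactors, and 0 of 6 neural tube homeobox factors were called. Among 6 genes of the pluripotency network SALL4 was higher. LHX1 and SALL4 are also on the undifferentiated list, and single calls in lists this short are not read further. The other genes with the largest calls were MSMP at 1.99, BNC2 and RGS10 at 1.59, TAGLN3 at 1.54 and FAM162B at 1.38 among those higher, and MT1A at -3.11 among those lower.

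**Figure D5:**
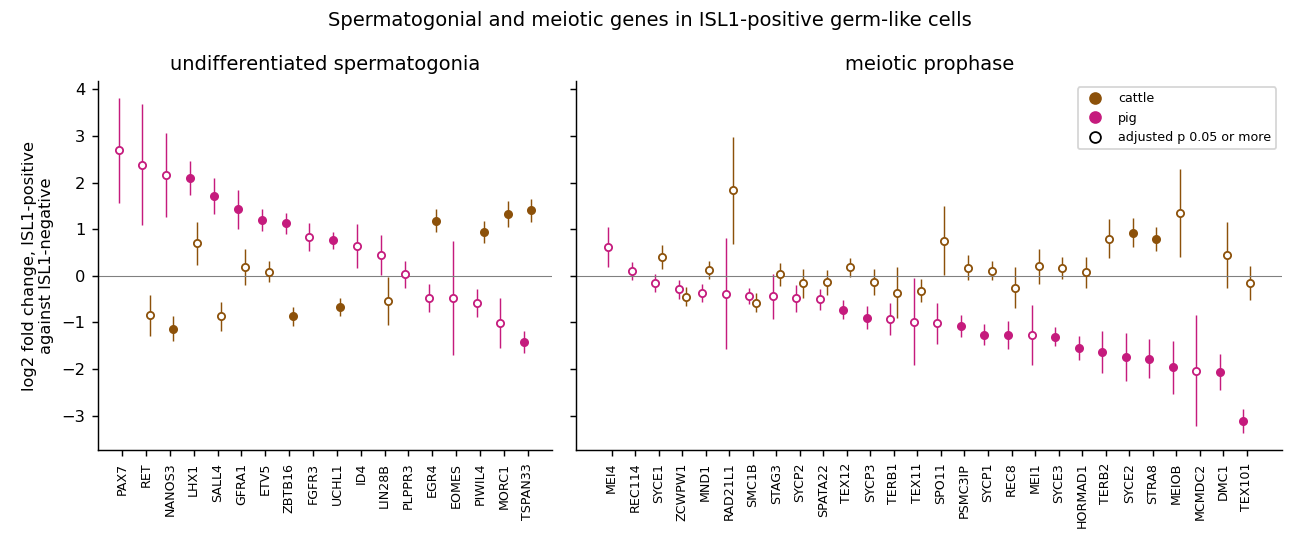
Difference between ISL1-positive and ISL1-negative germ-like cells (log2, edgeR with the library as a block, ± SE) for genes of the meiotic and undifferentiated spermatogonia lists in pigs and in cattle; filled points have an adjusted p under 0.05. In pigs 13 meiotic genes lie below 0 as filled points, and TSPAN33 is at -1.42 in pigs and 1.40 in cattle.

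In the fit with the block over all 3 pigs, UTF1-positive pig cells held less of several meiotic and cell division genes. With the block, 128 genes were higher (0.916%) and 378 lower (2.7%), against 1 lower (0.00716%) without it and 6 by DESeq2; without pig 3 88 were called, and without pig 2 807. Of 28 meiotic genes 15 were lower and 0 higher, with a median of -0.70 against -0.02 for all genes. This count was 6 of 27 without the TEX101-led cluster and 1 of 25, TEX101, without pig 3, in fits where 1.53% and 0.551% of all genes were lower. TEX101 stood at 31.9, 14.4 and 10.2 CPM against 171, 16.3 and 164 CPM. UTF1-positive cells were the deeper in each pig, with medians of 4029, 17610 and 20780 UMIs against 2751, 13940 and 12690. In thinned cells of the 3 pigs together, the order of shares differed between meiotic genes. SYCE3 was found in 7.69% of the 65 cells with UTF1 and 24.15% of those without, and SYCP1 in 16.9% and 13.7%. Of 18 cell division genes 6 were lower, among them the mitotic genes CENPF at -0.68 and TOP2A at -0.67. Of the undifferentiated list FGFR3 was higher by 1.02 and TSPAN33 lower at -0.71. NKX2-2, a homeobox gene of the ventral neural tube, stood at 9.11, 3.43 and 5.68 CPM in UTF1-positive cells against 0.551, 2.03 and 1.36 CPM, higher by 1.85 (SE 0.59, edgeR adjusted p = 0.046 with the block, 0.0796 without the TEX101-led cluster). The UTF1-positive sum of pig 1 held 219666 UMIs, so that its NKX2-2 level rests on few UMIs. KIT was not called, and of the differentiating list UPP1 was higher by 0.85.

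DBX2-positive pig cells gave the fewest calls, 42 higher (0.301%) and 213 lower (1.52%) with the block, against 2 lower (0.0143%) without it and 4 by DESeq2; without pig 3 15 were called, and without pig 2 687. Of 28 meiotic genes 6 were lower and 0 higher, with TEX101 at -2.30, PSMC3IP at -1.43 and REC8 at -1.42. Without the TEX101-led cluster 3 of 27 were lower, and without pig 3 0 of 25, in fits where 1.19% and 0.121% of all genes were lower. KIT stood at 29.9, 36.2 and 8.33 CPM against 20.7, 64.3 and 49.9 CPM, lower at -1.51 (SE 0.30, edgeR adjusted p = 0.000124 with the block) although higher in pig 1. LHX1 was higher by 1.64 and ETV5 by 0.95, although ETV5 stood at 19.9 against 21.2 CPM in pig 1, and TSPAN33 was lower at -1.07. Without pig 3, 0 genes were higher over the whole table, and none of KIT, LHX1, ETV5 and TSPAN33 was called. In thinned cells ETV5 stood at -2.15, where the median of all genes was -0.67, and did not pass.

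In cattle, the genes called with ISL1 were in part those called in pigs, with TOP2A in the same direction and TSPAN33 in the opposite one. The ISL1-positive sum of cattle 1 held 14 cells and 39793 UMIs, so that its CPM values rest on few UMIs. With the block 374 genes were higher (3.23%) and 322 lower (2.78%) of 11595. Without the block 0 were called, with 1044 at an unadjusted p under 0.05, and DESeq2 called 1; without cattle 3 and with the block 0 were called, and without cattle 1 825. Of 13 undifferentiated genes 4 were higher and 3 lower. TSPAN33 stood at 251, 139.5 and 120.4 CPM in ISL1-positive cells against 47.5, 53.7 and 41.6 CPM, with no overlap, and was higher by 1.40 (SE 0.24, edgeR adjusted p = 1.02e-06 with the block). EGR4 was higher by 1.18, MORC1 by 1.32 and the piRNA gene PIWIL4 by 0.94, and ZBTB16 was lower at -0.86, UCHL1 at -0.67 and NANOS3 at -1.14. In thinned cattle cells, UCHL1 was found in 87.7% of those with ISL1 and 84.5% of those without.

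Of 6 neural tube homeobox genes tested NKX2-2 was higher with ISL1 in cattle, and of 16 LIM homeobox factors and cofactors LMO2 and LHX2 were, where 3.23% of all genes were higher. NKX2-2 stood at 50.3, 31.0 and 23.1 CPM in ISL1-positive cells against 11.9, 12.4 and 3.2 CPM, higher by 1.89 (SE 0.49, edgeR adjusted p = 0.00483 with the block). For this and the genes below, the ISL1-positive value of cattle 1 comes from 14 cells and few UMIs. LMO2, a LIM-only cofactor, stood at 100.5, 75.8 and 44.7 CPM against 11.9, 26.2 and 10.9 CPM, higher by 1.74 (edgeR adjusted p = 1.82e-05 with the block), and LHX2 was higher by 1.13, with 0 against 3.95 CPM in cattle 1. Of 19 cell division genes 4 were lower, with TOP2A at -1.49 and CENPF at -1.11. Of 30 meiotic genes 2 were higher and 0 lower, with a median of 0.09 against 0.00 for all genes. STRA8 stood at 126, 96.4 and 58.6 CPM against 35.6, 86.8 and 19.2 CPM, higher by 0.79 (edgeR adjusted p = 0.0465 with the block). SYCE2, the other, stood at 0.93 and moved to -1.08 without the cell of most UMIs in cattle 3, where STRA8 stayed higher and SMC1B was lower, among 2.81% of genes higher and 3.72% lower. Of 9 differentiating genes ESX1 was lower, and of 8 pluripotency genes 0 were called.

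UTF1-positive cattle cells gave 1 gene higher (0.00862%) and 244 lower (2.1%) with the block and 0 without it, where 300 had an unadjusted p under 0.05 and DESeq2 called 0. Without the cell of most UMIs 0 of 11359 were called with the block (0.0%), and without cattle 3 0. Calls such as H3F3C at -6.32 and SYCE2 at -1.90 became -0.62 and -0.02 without that cell. No list gene was then called with UTF1 in cattle, and the medians were -0.02 for 30 meiotic and 0.02 for 13 undifferentiated genes against -0.02 for all genes.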

How the data were processed

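Total testicular cells of 3 cattle and 3 pigs were measured by 10x v2 scRNA-seq. The authors deposited raw UMI counts per gene and barcode, made with Cell Ranger 2.1.0 per the labels, on ARS-UCD1.2 (cattle) and Sscrofa11.1 (pig). A pig file header names another version. Cattle files list 737280 barcodes each, empty droplets included, and pig files those with many UMIs.

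Cells were called by a Cell Ranger 2 style threshold with 3000 expected cells and at least 200 genes. Scrublet's top scores, in proportion to the number of cells, were left out (100, 613 and 308 cells in cattle and 84, 124 and 41 in pigs). With scanpy 1.11.5, 2000 variable genes (members, meiotic genes and 106 fertility genes of the study left out), 30 components, 15 neighbours and Leiden resolution 1 gave clusters, named by at least 3 markers with a UMI in 5% of cells and 2-fold higher. Germ-like cells rest on these rebuilt names.

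UMIs were summed per library and class. edgeR 4.0.16 (quasi-likelihood, TMM, at least 10 counts over the sums, Benjamini-Hochberg at 0.05, R 4.3.3) was fitted over all genes, without a block as designed; DESeq2 1.42.0 was an alternative. All 3 members passed the filter. Each library gave 2 sums, positive and negative: the pairing comes from the shared library, and the correlation of deviations over 21 pairs in 7 fits was 0.258 to 0.718, so blocked values are printed. Shares are over cells, with exact binomial or Poisson intervals at 95%. The comparison by meiotic genes was void at full depth, where cattle 2, cattle 3, pig 2 and pig 3 had fewer than 10 cells with under 2 such genes; classes of cells thinned to 2000 UMIs replaced it. Scripts were tested on simulated data.

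Named genes are the members, the 5 most alike over sums of at least 20 cells, the 5 largest calls each way with at least 20 CPM and 1 direction in 3 libraries, and up to 6 calls per list; genes named in other counts were chosen after their values were seen. The members and lists were chosen with earlier results of these data known.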

Additional observations from a re-analysis of the deposited data

Results flagged for a closer look

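In every library of both species, 4 genes differed between ISL1-positive and ISL1-negative germ-like cells in opposite directions in cattle and pigs; the difference between the species was not tested, and species, age and breed cannot be told apart. STRA8 stood at 0.79 on the log2 scale in cattle and -1.78 in pigs, TSPAN33 at 1.40 and -1.42, UCHL1 at -0.67 and 0.76, and ZBTB16 at -0.86 and 1.13, all from the fit with the library as a block. In cattle, 0 genes were called with ISL1 without the block, and 0 with it when cattle 3 was left out. In pigs 4 were called without the block. With the block and pig 3 left out, no gene of the undifferentiated list, which holds UCHL1 and ZBTB16, was called higher. Some library values rest on few UMIs, as for STRA8 in pig 1, and the STRA8 sums of cattle 2 were close. In thinned cells of each species together, STRA8 was found in 2 of the 93 pig cells with ISL1 (2.15%), too few to compare with the 2.38% of those without. For cattle these STRA8 shares were 18.5% (12 of 65 cells) and 11.6% (48 of 413). UCHL1 was found in 87.7% and 84.5% of cattle cells, against the order of its sums, and in 68.8% and 44.1% of pig cells.

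Signal of the 3 genes was also found outside the named cells. A pig cluster of 312 cells, 299 of them from pig 2, was left unnamed, since most of its markers were those of myoid cells while it was led by germ cell genes such as UCHL1 and ELAVL2, with INHA at 1173 CPM and DCN at 406 CPM beside them. It held 13 UTF1 UMIs (12.6 CPM), 28 of ISL1 (27.1 CPM) and 9 of DBX2 (8.71 CPM). With the 3 pigs pooled, the highest named type other than germ cells reached 5.22, 1.38 and 0.716 CPM. In a single pig such a type reached 7.59, 2.54 and 1.83 CPM. Barcodes of cattle 2 with at most 50 UMIs, 1641599 UMIs in all, held 4 UMIs of UTF1 and 4 of ISL1 (2.44 CPM each). Those of cattle 3 held 2 UMIs of each among 830628, and those of cattle 1 held 1 of ISL1 and 1 of DBX2 among 1014897. The part of doublets or free RNA in these values was not tested.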

How the results depend on the processing

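Counts of called genes moved with the replicate block, with the library left out and with the cells left out. With the replicate block they were, in cattle, 245 with UTF1, 696 with ISL1 and 8 with meiotic genes, and in pigs 506, 776, 255 (DBX2) and 248, against 0, 0, 0, 1, 4, 2 and 1 without it. Leaving out a library gave, without the block, 0 to 54 and 0 to 89 in cattle and 0 to 4, 0 to 7, 0 to 24 and 0 to 3 in pigs; with the block, leaving out library 1, 2 and 3, it gave 316, 306 and 0, 825, 580 and 0, and 4, 7 and 7 in cattle, and 347, 807 and 88, 382, 1115 and 204, 228, 687 and 15, and 57, 348 and 1 in pigs. DESeq2 gave 1 with ISL1 in cattle and 6, 32, 4 and 6 in pigs. With no filter on low counts 102 and 170 were called in cattle and 13, 53, 67 and 13 in pigs. Without TMM 0, 0, 0 and 2 were called in pigs, with 500 genes per cell 0, 2 and 1, at Leiden resolution 2 0, 2 and 1, and with at least 2 markers 0, 1, 0 and 2. At least 1 or 3 meiotic genes gave 4 and 8 in pigs. Chosen after the data were seen: without the TEX101-led cluster 0, 0, 0 and 0, with the block 296, 573, 193 and 84; without the deepest cattle cell and with the block 0 with UTF1, 741 with ISL1 and 9 with meiotic genes; thinned 4, 16 and 31, with the block 186, 75 and 181; full-depth meiotic sums 3 in pigs, 0 without the cluster, and with the block 52 in cattle and 699 in pigs, 8 and 366 without those cells, and in pigs 428, 1296 and 121 leaving out library 1, 2 and 3, in cattle 4 to 61, with 51 without cattle 2.

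Some differences turned. UTF1 by meiotic genes in cattle, -0.09, became 0.0366 without cattle 1 (0.0883 with the block), 0.27 in full-depth sums (0.34 with the block, 0.16 to 0.49 leaving out a library) and 0.32 without the deepest cell (0.39 with the block). DBX2 there ran from -0.90 to 0.21 leaving out a library (0.22 without cattle 3 with the block), 0.24 with at least 2 markers and 0.0112 in full-depth sums without cattle 3. In pigs, UTF1 by meiotic genes became 0.12 with at least 2 markers and DBX2 0.0619 in full-depth sums without pig 3. ISL1 with UTF1 became -0.14 thinned (-0.11 with the block), ISL1 with DBX2 -0.19 (-0.26), RGS10 with DBX2 -0.84 (-0.996) and ETV5 with DBX2 -2.11 (-2.15). The median of all genes in these thinned fits was itself -0.45 with UTF1 and -0.67 with DBX2, with and without the block. ISL1 stayed above that median in both, and RGS10 and ETV5 lay below it. UTF1 with ISL1 ran from -0.0552 without pig 3 (-0.000621 with the block) to 0.72 without pig 1. In cattle, SYCE2 with ISL1 became -1.10 without the deepest cell (-1.08 with the block) and ran from -0.49 to 1.16 leaving out a library, SYCE2 with UTF1 became 0.0686 without cattle 3 with the block, and DBX2 with UTF1 -0.0136 without the deepest cell with the block. The cause was not tested.

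Thinning lowered the mean shares, to 11.5%, 13.1% and 5.93% for UTF1, ISL1 and DBX2 in cattle and to 5.61%, 8.07% and 4.05% in pigs. Other settings moved the mean shares by less than the SD between libraries, which was wide. At Leiden resolution 2 the germ-like cells of pig 2 rose from 217 to 372. Its shares fell from 36.9% to 24.7% for UTF1, from 50.7% to 36.0% for ISL1 and from 37.3% to 23.9% for DBX2. For UTF1 pig 3 was then the highest, at 27.8%. With at least 500 genes per cell, pig 2 had 371 such cells, at 24.8%, 36.1% and 23.7%. Depth limits the calls in single cells: most positive cells carried 1 or a few UMIs. Thinned comparisons of positive cells and the comparison by 1 meiotic gene were not run in cattle, where a class had fewer than 10 cells.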
